A study of Mus musculus with 8 samples.

Results

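Calcineurin and its NFAT targets were followed at the RNA level in the left ventricle (LV) of mice under angiotensin II (angII) infusion. The 10 genes were taken by their symbols from a table of 46040 genes and comprised the calcineurin subunits *Ppp3ca*, *Ppp3cb* and *Ppp3r1*, the inhibitors *Rcan1*, *Rcan2* and *Cabin1*, and the transcription factors *Nfatc1*, *Nfatc2*, *Nfatc3* and *Nfatc4*. Each symbol had 1 row, and all 10 genes were among the 13542 genes that passed the filter on low counts, which asked for a CPM (the count scaled to its library's total) of 1 or more in 2 or more libraries.

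The study compared LVs of male C57BL/6 mice, 5 to 7 months old, whose VEGFR-1 lacks its tyrosine kinase domain (VEGFR-1 TK-/-) with those of littermate controls, 4 libraries per genotype. All mice received angII at 0.1 mg/kg/h and were sampled on day 14, so that the groups hold only animals that lived through the infusion, and no group without angII was analysed here. The TK-/- allele is carried in the germline, so all cell types have it. The sample titles name the opposite genotype from the genotype tags and library names. The tags and library names set the groups, hence the terms control-tagged and TK-/- tagged. Every direction below turns round if the titles are right. *Flt1*, which encodes VEGFR-1, had a normalized CPM of 56.9 to 84.3 in the control-tagged and 144 to 169.6 in the TK-/- tagged libraries (log2 fold change 1.19, FDR = 0.00808 by the quasi-likelihood test of edgeR, which gave every FDR below unless another test is named), but its reads are summed over all exons, those of the kinase domain included, and so do not settle the labels. Library totals lay between 11449137 and 16239670 counts. Summed markers of cardiomyocytes had 40403 to 65489 normalized CPM per library and those of the atrium 3.68 to 5.90, as for LV tissue, although the library names refer to cardiomyocytes. Markers of endothelial cells (1041 to 1395 normalized CPM), fibroblasts (453 to 1108) and leukocytes (211 to 412) were present in every library, so the values describe whole tissue, in which fewer cells of a type and less RNA per cell cannot be told apart.

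Calcineurin is a phosphatase that is switched on by calcium and calmodulin. It consists of a catalytic A subunit, encoded in the heart mainly by *Ppp3ca* and *Ppp3cb*, and a calcium-binding regulatory B subunit, encoded by *Ppp3r1*. Active calcineurin removes phosphates from cytoplasmic NFAT proteins, which then enter the nucleus and act with GATA4 and MEF2 on genes of cardiomyocyte growth, a route known from pathological hypertrophy. RCAN proteins bind calcineurin and restrain it, and *Rcan1* is itself induced by NFAT from an internal promoter, so that its RNA is widely used as a readout of calcineurin activity in the myocardium. CABIN1 is another inhibitor, which also holds MEF2 in a repressed state.

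The *Rcan1* promoters are shown because this gene had the largest difference between the groups among the 10 genes and because its starts differ in the short core that NFAT binds. The gene spans 92391953 to 92470867 of chromosome 16 (GRCm38, minus strand), and RefSeq (GRCm38.p6) lists 2 starts, 66091 bases apart. Each window runs from 250 bases before to 50 bases after its start, 5′ to 3′ on the minus strand. Capitals mark the core GGAAA or its reverse complement TTTCC.
Rcan1, upstream start, chr16:92466120-92466419: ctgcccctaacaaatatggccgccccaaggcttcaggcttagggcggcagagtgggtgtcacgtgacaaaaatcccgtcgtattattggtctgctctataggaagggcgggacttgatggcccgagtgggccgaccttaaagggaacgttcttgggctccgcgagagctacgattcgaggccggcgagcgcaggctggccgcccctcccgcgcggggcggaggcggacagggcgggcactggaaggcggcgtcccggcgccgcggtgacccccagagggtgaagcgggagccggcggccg
Rcan1, internal start, chr16:92400029-92400328: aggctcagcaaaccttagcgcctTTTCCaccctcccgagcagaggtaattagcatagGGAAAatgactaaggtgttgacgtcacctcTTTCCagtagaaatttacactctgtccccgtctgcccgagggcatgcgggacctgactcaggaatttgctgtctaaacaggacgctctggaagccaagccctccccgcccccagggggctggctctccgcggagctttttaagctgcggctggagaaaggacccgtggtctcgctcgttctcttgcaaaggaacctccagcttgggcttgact
The upstream window, 67.7% G and C with 33 CG pairs, held 0 copies of the core. The internal window, 56.3% G and C with 14 CG pairs, held 3 copies, which began 227, 193 and 163 bases before the start. Of 32851 windows of this length in the RefSeq table, 61.3% held at least 1 copy on either strand and 9.42% held at least 3. A match is only a match of letters, and the counts are summed over the gene, so that RNA from the upstream and the internal start was not separated. Starts also differed within *Rcan2* (2, 0 and 0 copies), *Nfatc2* (3 and 1) and *Nfatc3* (1 and 0). *Ppp3cb* held 4 copies, *Nfatc4* 3, and *Ppp3r1* and *Cabin1* 0. Of the 10 genes, 8 matched the table, and *Ppp3ca* and *Nfatc1* did not.

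Per kilobase of exon, the inhibitors *Rcan1* and *Rcan2* stood far above the phosphatase they restrain, and the NFAT genes and *Cabin1* were below its subunits. On this scale, normalized CPM divided by the length of all annotated exons of the gene, *Rcan2* had a level of 156 ± 14.5 and *Rcan1* of 106 ± 33.1 (SD over all 8 libraries). *Ppp3r1* followed at 19.0 ± 1.16, *Ppp3cb* at 7.33 ± 0.488 and *Ppp3ca* at 5.94 ± 0.403 normalized CPM per kb. *Nfatc1* (4.48 ± 0.352) and *Cabin1* (4.31 ± 0.330) were next, and this pair did not differ beyond its spread, *Nfatc1* being higher in 5 of 8 libraries. *Nfatc2* had 2.62 ± 0.511, *Nfatc3* 2.13 ± 0.110 and *Nfatc4* 1.53 ± 0.401 normalized CPM per kb. *Nfatc2* was above *Nfatc3*, and *Nfatc3* above *Nfatc4*, in 7 of 8 libraries each, as was *Rcan2* above *Rcan1*, with overlapping ranges in all these pairs. The other neighbours kept their order in all 8 libraries. With the longest annotated transcript as the length, *Cabin1* changed place with *Nfatc1* and *Nfatc3* with *Nfatc2*, and the other ranks were the same.

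**Figure D1:**
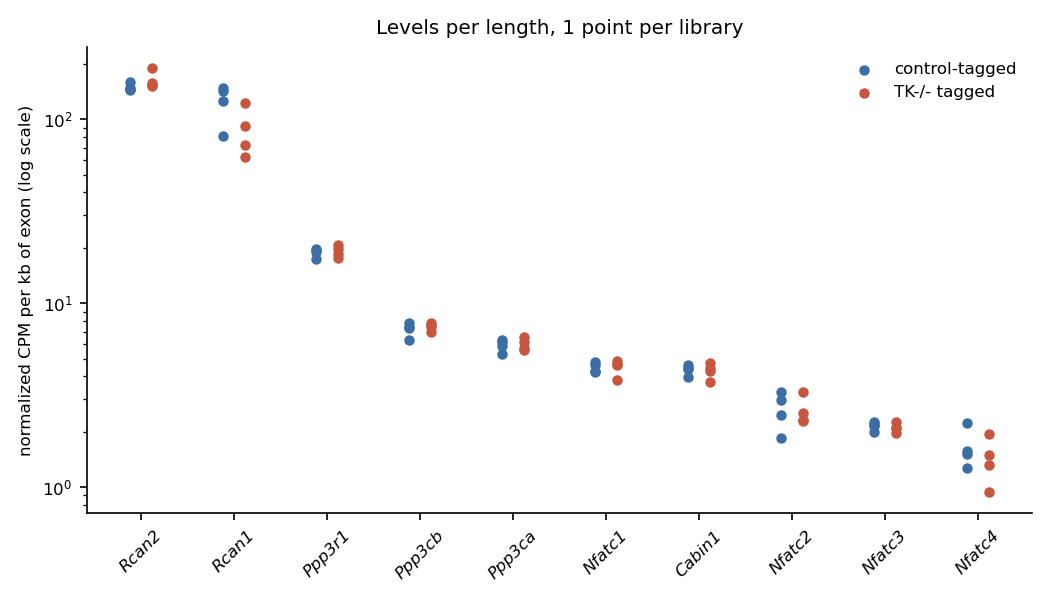
Level of each gene in normalized CPM per kb of exon (log scale), 1 point per library, control-tagged in blue and TK-/- tagged in red, genes ordered by their mean. *Rcan2* and *Rcan1* lie near 156 and 106, while the *Nfatc* genes lie between 0.939 and 4.87.

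No gene of the pathway was called between the genotypes. Of the 10 genes, 0 reached an FDR under 0.1 together with a log2 fold change beyond 0.585 in either direction by edgeR's quasi-likelihood test, where 0.00738% of all genes tested did, and 0 were called by the likelihood ratio test, where 0.391% of all genes were, or by DESeq2. The unadjusted p of the quasi-likelihood test was under 0.05 for 1 of 10 genes, *Rcan1*, which was lower in the TK-/- tagged libraries. Among all genes this share was 8.96%, with 5.64% lower and 3.32% higher. The groups did not overlap in 0 of the 10 genes, against 4.98% of all genes. Of the 10 genes, 5 had a log2 fold change below 0, and 50.3% of all genes did. Their median log2 fold change was −0.01 and their median absolute log2 fold change 0.03, where the median absolute value over all genes tested was 0.13. The 95% interval of the fold change lay inside 1.5-fold in both directions for 8 of the 10 genes, all but *Rcan1* and *Nfatc4*, and for 64.8% of all genes.

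**Figure D2:**
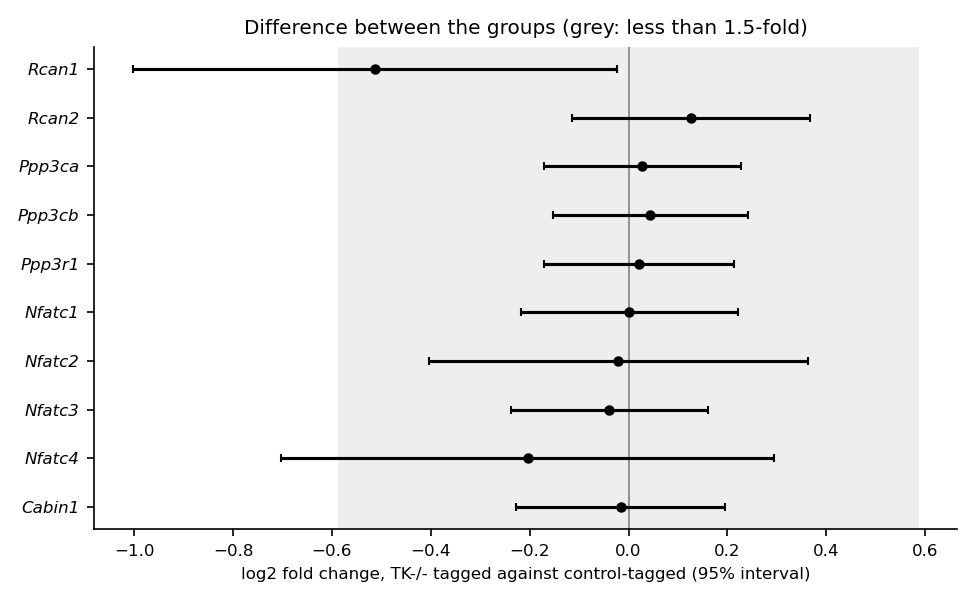
Log2 fold change of the TK-/- tagged against the control-tagged libraries for each gene, with its 95% interval from edgeR's quasi-likelihood test and 4 libraries per group; the grey band marks changes of less than 1.5-fold. *Rcan1* is the only gene whose interval (−1.002 to −0.02) leaves out 0, and the other 9 intervals include it.

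*Rcan1* (ENSMUSG00000022951), the feedback inhibitor and readout gene, had the largest difference and the largest spread of the 10 genes. Control-tagged replicates 1 to 4 had a normalized CPM of 441, 388, 458 and 249.7. TK-/- tagged replicates 1 to 4 had 223, 193, 283 and 378. Most control-tagged libraries were high and most TK-/- tagged libraries low, but control-tagged replicate 4 lay below TK-/- tagged replicates 3 and 4, so the groups overlapped. The means were 384 ± 94.4 and 269 ± 81.7 normalized CPM (SD, n = 4 per group), a 0.701-fold level in the TK-/- tagged libraries with a 95% interval from 0.499 to 0.984. On the log2 scale this was −0.51 (SE 0.22), with FDR = 0.539 in edgeR and rank 1039 of 13542 genes by p. The quasi-likelihood test gave an unadjusted p = 0.0414, and the 2-sided exact permutation test of log2 normalized CPM gave p = 0.114, where 0.0286 is the smallest value that 4 libraries against 4 allow. The SD of log2 normalized CPM within groups was 0.41, higher than in 86.8% of the genes tested.

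The difference in *Rcan1* depended on single libraries in size but not in direction. Without TK-/- tagged replicate 4, the highest of its group, the log2 fold change was −0.72, and without control-tagged replicate 4, the lowest of its group, it was −0.67. Without TK-/- tagged replicate 2 it was −0.39. The lowest FDR over 17 alternatives was 0.376, so *Rcan1* was called in none of them, and its unadjusted p was under 0.05 in 11 of the 17. Among the 8 that leave out a library, this held in 2, those without control-tagged replicate 4 or TK-/- tagged replicate 4. The likelihood ratio test, run without each library in turn, came closest to a call without TK-/- tagged replicate 4 (FDR = 0.104).

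*Rcan2* (ENSMUSG00000039601, chromosome 17, 43801351 to 44039516), the second RCAN inhibitor, varied much less. Its normalized CPM was 698, 628, 647 and 640 in control-tagged replicates 1 to 4 and 662, 829, 686 and 674 in TK-/- tagged replicates 1 to 4. Apart from TK-/- tagged replicate 2, all libraries lay between 628 and 698. The log2 fold change was 0.13 (SE 0.11, 95% interval −0.11 to 0.37) with an FDR = 0.761 in edgeR, and 0.04 without TK-/- tagged replicate 2. In the same library *Rcan1* had its lowest value, 193 normalized CPM.

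The balance of the RCAN inhibitors varied from library to library. *Rcan1* made up 47.2%, 46.7%, 50.1% and 35.6% of the sum of *Rcan1* and *Rcan2* per kb in control-tagged replicates 1 to 4. In TK-/- tagged replicates 1 to 4 it made up 32.3%, 24.8%, 36.9% and 44.3%. The means were 44.9 ± 6.37% and 34.6 ± 8.17% (SD, n = 4 per group), and the groups overlapped in control-tagged replicate 4 and TK-/- tagged replicates 3 and 4. No test was made of this share.

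*Cabin1* (ENSMUSG00000020196, chromosome 10, 75646112 to 75764341) was at 47.9, 56.0, 53.1 and 53.8 normalized CPM in control-tagged replicates 1 to 4. In TK-/- tagged replicates 1 to 4 it was at 57.3, 54.0, 45.3 and 51.9. High and low values occurred in both groups. The log2 fold change was −0.02 (SE 0.10, 95% interval −0.23 to 0.19, FDR = 0.974 in edgeR).

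**Figure D3:**
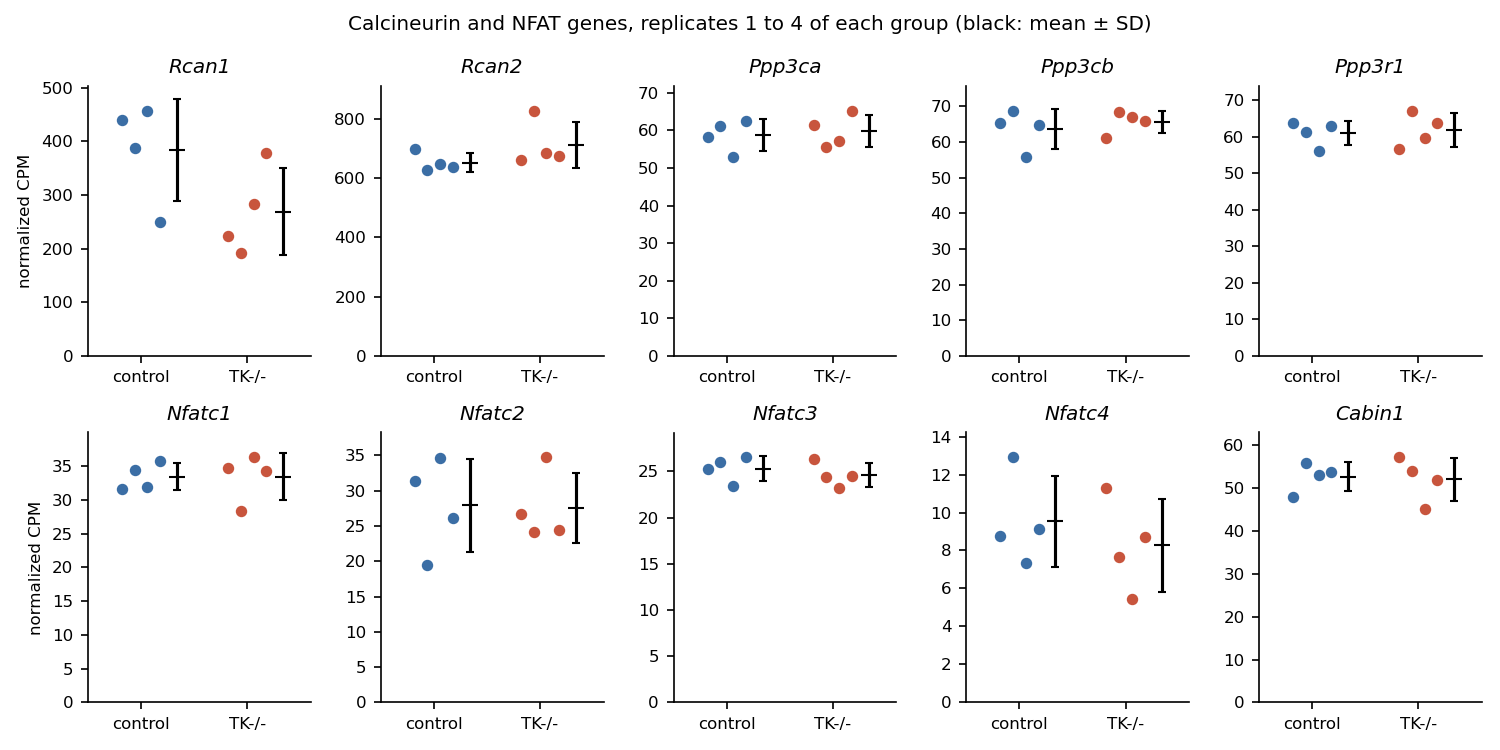
Normalized CPM of each gene in replicates 1 to 4 (left to right) of the control-tagged (blue) and TK-/- tagged (red) libraries, with the mean and SD of each group in black and each axis starting at 0. The groups overlap in all 10 genes, and *Rcan1*, *Nfatc2* and *Nfatc4* spread more than the rest.

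The calcineurin subunits were nearly level across the 8 LVs. *Ppp3ca* (ENSMUSG00000028161, chromosome 3, 136670124 to 136937727), one catalytic subunit, had a normalized CPM of 58.2, 61.1, 53.0 and 62.6 in control-tagged replicates 1 to 4 and of 61.3, 55.7, 57.1 and 65.3 in TK-/- tagged replicates 1 to 4. *Ppp3cb* (ENSMUSG00000021816, chromosome 14, 20499364 to 20546573), the other, had 65.2, 68.8, 55.8 and 64.7 in the former and 61.1, 68.4, 67.1 and 65.8 in the latter. *Ppp3r1* (ENSMUSG00000033953, chromosome 11, 17159263 to 17200375), the regulatory subunit, had 63.7, 61.4, 56.2 and 62.9 normalized CPM in the control-tagged and 56.8, 67.2, 59.8 and 63.8 in the TK-/- tagged libraries. Control-tagged replicate 3 was the lowest library for each of these subunits, and the groups covered nearly the same range. The log2 fold changes were 0.03 (SE 0.09) for *Ppp3ca*, 0.04 (SE 0.09) for *Ppp3cb* and 0.02 (SE 0.09) for *Ppp3r1*, and edgeR gave FDR values of 0.949, 0.915 and 0.961 in turn. Their 95% intervals reached from 0.888-fold to 1.17-fold, from 0.899-fold to 1.18-fold and from 0.888-fold to 1.16-fold. *Ppp3r1* shares 462 exon bases with *Wdr92* on the same strand, and reads there could not be given to one gene with certainty.

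Per kb, *Ppp3ca* stood a little below *Ppp3cb* in every library. *Ppp3ca* made up 44.9 ± 1.07% of their sum per kb in the control-tagged and 44.6 ± 2.64% in the TK-/- tagged libraries (SD, n = 4 per group). Single libraries lay between 41.8% and 47.0%. *Ppp3cc*, another catalytic gene, best known from testis, was also present, with 32.2 ± 2.77 normalized CPM in the control-tagged and 35.6 ± 2.95 in the TK-/- tagged LVs (SD, n = 4 per group; log2 fold change 0.14, FDR = 0.697 in edgeR). Over all 8 libraries, the mean of *Ppp3cc* was 33.9 normalized CPM, beside 59.3 for *Ppp3ca* and 64.6 for *Ppp3cb*. The level of *Ppp3cc* per kb was not computed, and the share above leaves this gene out. *Ppp3r2*, the testis form of the regulatory subunit, had at most 1 count in a library and 2 counts over all 8.

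None of the NFAT transcription factors was called between the genotypes, and they differed in how steady they were. *Nfatc1* (ENSMUSG00000033016, chromosome 18, 80606205 to 80713071), known from the endocardium and heart valves, had 31.6, 34.4, 31.9 and 35.8 normalized CPM in control-tagged replicates 1 to 4. It had 34.8, 28.4, 36.3 and 34.3 normalized CPM in TK-/- tagged replicates 1 to 4. Its means of 33.4 ± 2.02 and 33.5 ± 3.48 normalized CPM (SD, n = 4 per group) were nearly equal, and the 95% interval of the fold change ran from 0.86 to 1.17 (log2 fold change 0.0015, FDR = 0.998 in edgeR).

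*Nfatc2* (ENSMUSG00000027544, chromosome 2, 168476410 to 168601657), which is prominent in T cells and also acts in cardiomyocytes, had 31.4, 19.5, 34.6 and 26.1 normalized CPM in control-tagged replicates 1 to 4. It had 26.7, 24.1, 34.8 and 24.4 in TK-/- tagged replicates 1 to 4. Replicate 3 was the highest in both groups and control-tagged replicate 2 the lowest of all. The log2 fold change was −0.02 (SE 0.18, 95% interval −0.40 to 0.36, FDR = 0.981 in edgeR). The T cell marker *Cd3e* had at most 20 counts in any library.

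*Nfatc3* (ENSMUSG00000031902, chromosome 8, 106058840 to 106130537), a calcineurin effector in cardiomyocyte hypertrophy, was the steadiest of the 10 genes. It had 25.2, 26.0, 23.4 and 26.5 normalized CPM in control-tagged replicates 1 to 4 and 26.3, 24.4, 23.1 and 24.5 in TK-/- tagged replicates 1 to 4. All 8 libraries thus lay between 23.1 and 26.5, and the SD of log2 normalized CPM within groups, 0.08, was at the percentile 3.85 of all genes tested. The log2 fold change was −0.04 (SE 0.09, 95% interval −0.24 to 0.16, FDR = 0.928 in edgeR). *Nfatc3* shares 219 exon bases with *Esrp2* on the opposite strand, and the use of strand in the counting is not stated.

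*Nfatc4* (ENSMUSG00000023411, chromosome 14, 55823144 to 55833943), the NFAT first described as a GATA4 partner in the heart, was covered by the fewest reads, 69 to 178 per library. Control-tagged replicates 1 to 4 had 8.76, 12.9, 7.33 and 9.12 normalized CPM, and TK-/- tagged replicates 1 to 4 had 11.3, 7.63, 5.45 and 8.69. The highest library was control-tagged and the lowest TK-/- tagged, with the remaining values mixed. The log2 fold change was −0.20 (SE 0.23, FDR = 0.821 in edgeR). It was −0.02 without control-tagged replicate 2, −0.05 without TK-/- tagged replicate 3 and −0.39 without TK-/- tagged replicate 1. The 95% interval of the fold change, 0.614 to 1.23, was the widest of the 10 genes and includes a decrease of 1.5-fold.

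Within the NFAT family, *Nfatc1* made up 41.0 ± 2.05% of the sum per kb in the control-tagged and 42.2 ± 1.96% in the TK-/- tagged LVs (SD, n = 4 per group). *Nfatc2* made up 24.2 ± 5.85% and 24.5 ± 3.59%, *Nfatc3* 19.8 ± 0.894% and 19.9 ± 1.68%, and *Nfatc4* 15.0 ± 3.76% and 13.4 ± 3.60% (SD, n = 4 per group). These shares differed between the groups by less than the SD within them.

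A list of 65 other genes of the pathway was read from the same fit, and 57 of them passed the filter on low counts. None of the 57 was called by edgeR's quasi-likelihood test, 6 had an unadjusted p under 0.05, 1 of them higher and 5 lower in the TK-/- tagged libraries. The median log2 fold change over the 57 genes was −0.0049, beside −0.0012 over all genes tested. The groups did not overlap in 2 of them, *Stim1* and *Stim2*. Both counts are near or below the shares over all genes tested, 8.96% with such a p and 4.98% without overlap. The likelihood ratio test and DESeq2 called 0 of them too. The 8 genes under the filter were *Ppp3r2*, *Myoz1*, *Myoz3*, *Trpc4*, *Trpc5*, *Trpc6*, *Ptgs2* and *Nron*, and of these *Trpc5* and *Nron* had 0 counts in every library.

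**Figure D4:**
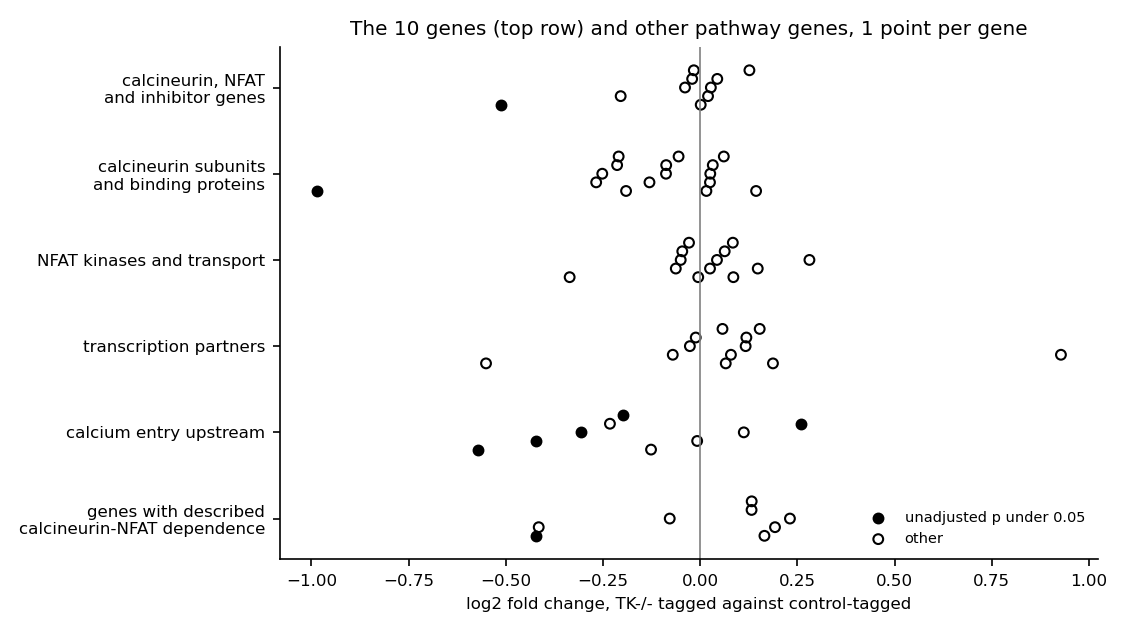
Log2 fold change of the TK-/- tagged against the control-tagged libraries for the 10 genes (top row) and for the tested genes of the 5 groups of the pathway list, 1 point per gene, filled where the unadjusted quasi-likelihood p is under 0.05. A gene on more than 1 list is drawn in each of its rows, and calcium entry holds 5 of the filled points, 4 of them below 0.

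Among 16 tested subunits and binding proteins of calcineurin, 6 had a log2 fold change above 0 and 10 below 0. The most abundant was *Myoz2*, encoding calsarcin-1, which ties calcineurin to the Z-disc, with means of 1437 ± 145 and 1470 ± 123 normalized CPM (SD, n = 4 per group; log2 fold change 0.03, FDR = 0.956 in edgeR). The calmodulin genes *Calm2* and *Calm3* both had a log2 fold change of −0.21, and edgeR gave FDR values of 0.576 and 0.645. *Rcan3*, the least studied RCAN gene, had a log2 fold change of −0.25 (FDR = 0.6 in edgeR). *Akap5*, an anchor that brings calcineurin to membrane channels, was the only gene of this group with an unadjusted p under 0.05, on few reads: 24, 48, 71 and 15 counts in control-tagged replicates 1 to 4, and 16, 12, 23 and 19 in TK-/- tagged replicates 1 to 4. Control-tagged replicates 2 and 3 were high and the other 6 libraries alike (log2 fold change −0.99, FDR = 0.521 in edgeR), and the groups overlapped.

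Kinases that return NFAT to the cytoplasm were listed with genes of its nuclear transport and with *Nfat5*. Of the 13 tested, 0 had an unadjusted p under 0.05. *Gsk3b* had a log2 fold change of 0.03 (SE 0.13) and *Dyrk1a* of −0.06 (SE 0.08). The transcription partners likewise held 0 of 12 such genes. *Gata4* had a log2 fold change of 0.15 (SE 0.11), *Mef2c* of 0.06 (SE 0.08) and *Mef2d* of 0.12 (SE 0.09).

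Genes of calcium entry upstream of calcineurin held 5 of the 6 genes with an unadjusted p under 0.05, out of 9 tested, though none had an FDR under 0.1. Over all genes tested, 8.96% had such a p, 5.64% with a lower and 3.32% with a higher level in the TK-/- tagged libraries. In 7 of the 9 the log2 fold change was below 0. *Stim2*, a sensor of calcium stores, had 19.8, 23.0, 20.7 and 22.4 normalized CPM in control-tagged replicates 1 to 4 and 19.3, 17.8, 16.1 and 16.2 in TK-/- tagged replicates 1 to 4. Every control-tagged library was above every TK-/- tagged library (log2 fold change −0.31, SE 0.10, FDR = 0.468 in edgeR; 2-sided exact permutation p = 0.0286, the smallest possible). Its relative *Stim1* was at 24.6 to 25.6 in the former and 20.4 to 23.0 in the latter, again without overlap (log2 fold change −0.20, SE 0.09, FDR = 0.551 in edgeR), as in 4.98% of all genes tested.

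*Cacna1h*, a T-type channel gene, had a log2 fold change of −0.57 that leaned on control-tagged replicate 3 (17.2 normalized CPM, against 6.24 to 11.2 in the rest of its group). *Cacna1c*, the L-type channel of cardiomyocytes, was the only one of the 5 with a positive log2 fold change, at means of 251 ± 27.5 against 301 ± 32.1 normalized CPM (SD, n = 4 per group; log2 fold change 0.26, FDR = 0.544 in edgeR).

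The number of calcium entry genes with an unadjusted p under 0.05 was not stable. It was 1 without TK-/- tagged replicate 2 or 3, 2 without control-tagged replicate 2, 3 or 4 or without TK-/- tagged replicate 1, 3 without control-tagged replicate 1 and 3 with the replicate block. *Stim2* had such a p in 17 of 17 alternatives, *Cacna1h* in 11, *Cacna1c* in 10 and *Stim1* in 5. The summed levels of markers of other cells were read in the same libraries, and no marker was called. Of 4 markers listed for the endocardium, 4 had a negative log2 fold change. Their summed level was 95.3 to 140.5 normalized CPM in the control-tagged and 67.9 to 79.96 in the TK-/- tagged libraries. Most of that sum came from *Vwf*, with a mean of 67.0 normalized CPM and a log2 fold change of −0.62. *Npr3* had a mean of 11.9 (log2 fold change −0.20), *Plvap* of 9.76 (−0.42) and *Cytl1* of 2.70 (−0.51). The log2 fold change was also negative for 5 of 6 endothelial markers, with a summed level of 1114 to 1395 against 1041 to 1158 normalized CPM. It was negative for 5 of 6 leukocyte markers, at 314 to 412 against 211 to 316, and for 5 of 5 fibroblast markers, at 760.3 to 1108 against 453 to 975. Smooth muscle markers summed to 349 to 750.3 against 226 to 467 normalized CPM, with 2 of 4 negative. Cardiomyocyte markers had a positive log2 fold change in 5 of 6 genes. Their summed level overlapped between the groups, at 40403 to 60125 against 48888 to 65489 normalized CPM. Markers of red blood cells summed to 262 to 661 against 315 to 510, and those of skeletal muscle and adipocytes to at most 4.44 and 1.35 normalized CPM, with 1 and 2 genes at 0 throughout. No marker of the endocardial, endothelial, leukocyte and fibroblast lists was at 0 in all libraries, and their part in the values of *Rcan1*, *Stim1* or *Stim2* was not tested.

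Among 8 tested genes described as dependent on calcineurin and NFAT, 5 had a log2 fold change above 0 and 3 below 0, and 1 had an unadjusted p under 0.05. *Nppb*, the gene of BNP, had 452 ± 90.1 and 339 ± 140 normalized CPM (SD, n = 4 per group; log2 fold change −0.42, SE 0.27, FDR = 0.677 in edgeR). *Myh7*, the slow myosin heavy chain, had 1347 ± 902 and 1477 ± 625 normalized CPM (SD, n = 4 per group), a spread that leaves a 95% interval of −0.92 to 1.18 for its log2 fold change. *Vegfa*, the gene of a ligand of VEGFR-1, had means of 542 ± 32.2 and 636 ± 59.5 normalized CPM (SD, n = 4 per group; log2 fold change 0.23, FDR = 0.559 in edgeR).

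The genes whose log2 normalized CPM followed *Rcan1* most closely over the 8 libraries were *Thbs1* (Pearson r 0.96, Spearman rho 0.83), *Ntng2* (0.95 and 1), *Nlrc3* (0.95 and 0.90), *Slc2a10* (0.95 and 0.98) and *Tspan9* (0.94 and 0.98). They were picked for this likeness out of 13542 genes, and the points share the genotype difference and the scaling of each library, so the coefficients are a description. *Thbs1*, encoding the matrix protein thrombospondin-1, had means of 59.4 ± 18.2 and 42.5 ± 23.6 normalized CPM (SD, n = 4 per group). *Tspan9*, a tetraspanin gene, had means of 274 ± 39.0 and 192 ± 40.7 normalized CPM (SD, n = 4 per group). All 5 genes had a negative log2 fold change, between −0.59 and −0.30, overlapping groups, and no FDR from edgeR below 0.453.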

How the data were processed

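RNA of 8 LVs was sequenced. Per the submitters' processing notes and the methods, the authors trimmed reads with Trim Galore 0.4.4, aligned them to GRCm38 with STAR 2.5.4b and counted them with featureCounts on GENCODE M16. The authors deposited whole-number counts per gene, not normalized; all columns were used. The use of strand and of multiply aligned reads is not stated. Labels describe depletion of ribosomal RNA and the methods poly-A selection. The labels do not name the animal of each library, so p-values measure the spread between these libraries.

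Counts were normalized by TMM and tested with the quasi-likelihood test of edgeR 4.0.16 (R 4.3.3) across 13542 genes. FDR means the p adjusted by Benjamini and Hochberg across these genes. The thresholds and filter are those of the methods; their likelihood ratio test and DESeq2 1.42.0 were alternatives. For normalized CPM, counts were divided by the TMM-corrected total of the library, and log2 values used a prior count of 2. Positions, exon lengths and overlaps came from GENCODE M21 (GRCm38). Replicates differed by more than sampling noise, with 7.20 to 53.7 for chi-square over its degrees of freedom. At the totals given, counting error is large for genes at a CPM near 1.

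The 10 genes, the pathway and marker lists and the alternatives were chosen with earlier results of these data known. Named genes were the 10 genes, pathway genes with an unadjusted p under 0.05 or needed to explain a role, *Flt1*, list markers and the 5 genes most correlated with *Rcan1*. The fits were tested on simulated data. Same-numbered libraries of the groups had correlations of −0.06 to 0.34 between their deviations and were not treated as pairs. The values of some single genes of the lists are not reported here.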

Additional observations from a re-analysis of the deposited data

Results flagged for a closer look

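The highest of the 4 TK-/- tagged values of *Rcan2* stood apart. Replicate 2 had 829 normalized CPM, and the gap to the next library took a share of 0.854 of the range of its group. Of 26 groups of 4 values examined in this way, this was the only one so marked, and chance marks about 1 in 20.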

How the results depend on the processing

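None of the 10 genes, and none of the pathway list, was called in 17 refits with another test, scaling, filter, block or set of libraries, or at an FDR under 0.05 or without the fold limit. Of 170 log2 fold changes recomputed for the 10 genes, 152 kept their sign and 18 did not, all in genes with a log2 fold change between −0.02 and 0.04. Leaving out each library gave −0.022 to 0.059 for *Ppp3ca*, −0.017 to 0.084 for *Ppp3cb*, −0.023 to 0.059 for *Ppp3r1*, −0.043 to 0.069 for *Nfatc1*, −0.16 to 0.099 for *Nfatc2* and −0.065 to 0.043 for *Cabin1*. The sign of *Nfatc1* also turned with total counts (−0.018) and with the replicate number as a block (−0.0023); the replicate block changed no call, and only replicate 3 correlated best with its own number. *Ppp3ca* made up 47.9% of the sum of *Ppp3ca* and *Ppp3cb* without division by length and 42.5% by the longest transcript, and *Nfatc3* 26.3% and 23.8% of the NFAT RNA, as the divisor sets these shares. The mean share of *Rcan1* in the sum of *Rcan1* and *Rcan2* was 39.7% per kb of all exons. It was 32.0% without division by length and 39.9% by the longest transcript. The number of pathway genes with an unadjusted p under 0.05, 6, lay between 2 (without TK-/- tagged replicate 2 or 3) and 8 (without TK-/- tagged replicate 4). Over all genes, 1 was called, against 53 by the likelihood ratio test (from 16 when TK-/- tagged replicate 2 was left out up to 122 when control-tagged replicate 1 was), 32 by DESeq2 and 23 without the filter. The combination of the likelihood ratio test with left-out libraries, the counts of unadjusted p in the pathway lists and the ranks by the longest transcript were added after values were seen. Few reads stand behind *Nfatc4* (69 to 178 per library) and *Akap5* (12 to 71).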
